A study of Mus musculus with 6 samples.

Results

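Tuba1b, Tubb4b and Tubb5 are tubulin genes that microglia of these mice expressed at high levels, and their mRNAs differed between Nus1-deficient and control cells by unequal amounts. They were taken by symbol, 3 of the 4656 genes in the deposited table, and were chosen by that unequal size of change between cKO and Ctrl in the deposited values, so the differences given for them are a description and carry no test. In microglia labelled Nus1cKO (cKO), Tubb4b mRNA averaged 33.2% lower per length than in Nus1fl/fl controls (Ctrl), Tuba1b 24.95% lower and Tubb5 3.01% lower. For Tubb5 the groups overlapped on this scale, and its direction depended on how the libraries were scaled. Messenger RNA was sequenced from microglia, macrophages that live in the brain, in 3 cKO and 3 Ctrl libraries. In Nus1fl/fl mice the gene carries recombination sites, and Nus1 encodes a subunit of the enzyme that makes the dolichol lipid used for N-glycosylation. Per the labels, all mice received tamoxifen at 100 mg/kg by intraperitoneal injection on 5 days from postnatal day 28, and brains were taken 30 days after the last dose. The labels describe isolation of the cells by flow cytometry and also a culture medium with serum, without saying which cells were sequenced. The sources used here do not give the Cre driver, whether Ctrl mice carried it, or the sex of the mice, so an effect of Cre and one of losing Nus1 cannot be told apart. Replicates are called biological but are not tied to animals. A p-value here sets the group difference against a spread between libraries that is estimated partly from all genes fitted. Those genes had been called by the authors on the same comparison. Whether such a p-value extends to animals is not known.

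Microtubules are polymers of dimers of alpha-tubulin and beta-tubulin, and each of these proteins comes from several closely related genes called isotypes. Tuba1b encodes an alpha isotype, Tubb5 the widely expressed class I beta isotype and Tubb4b the class IVb beta isotype. Microtubules carry vesicles and organelles along the processes of microglia and form the spindle in dividing cells. In cultured mammalian cells, excess free tubulin leads to decay of tubulin mRNAs that are being translated, after the protein TTC5 recognises the first residues of the new chain.

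The coding sequences of the beta genes start with the stretch that encodes the recognised residues, and they show how alike the isotypes are. Shown are the first 45 coding bases of Tubb4b and Tubb5, from GENCODE transcripts, with the first 12 bases, from the start codon on, in capitals.
Tubb4b: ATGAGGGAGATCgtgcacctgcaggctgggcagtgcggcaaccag
Tubb5: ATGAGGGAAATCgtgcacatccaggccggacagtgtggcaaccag
Over the whole coding sequence Tuba1b had 98.3% identity with Tuba1a and 98.4% with Tuba1c, with 23 and 22 differing bases. Tubb4b and Tubb5 were less alike, at 82.8% identity with 229 differing bases.

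The similarity bears on how reads can be assigned. Of the 100-base windows along the Tuba1b transcript, 73.0% occurred exactly in an annotated transcript of another gene, with 48.6% of all its windows in Tuba1c and 27.3% in Tuba1a. For Tubb4b the share was 30.6%, mostly through the pseudogene Tubb4b-ps1, which held 27.4% of its windows. Tubb5 shared 0 of its 2550 windows of that length. The sources used here do not give the read length. With windows of 50 and 150 bases, 83.1% and 57.9% of those of Tuba1b were shared, 55.5% and 16.8% of those of Tubb4b, and 0.115% and 0% of those of Tubb5. The deposited read counts, which are estimates, were not whole numbers in 6 of 6 libraries for Tuba1b and Tuba1c and in 5 of 6 for Tuba1a, and whole in all 6 for Tubb4b and Tubb5. Values of Tuba1b, Tuba1a and Tuba1c are therefore uncertain as to how reads were split among them, and those of Tubb4b carry a smaller uncertainty of this kind.

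**Figure D1:**
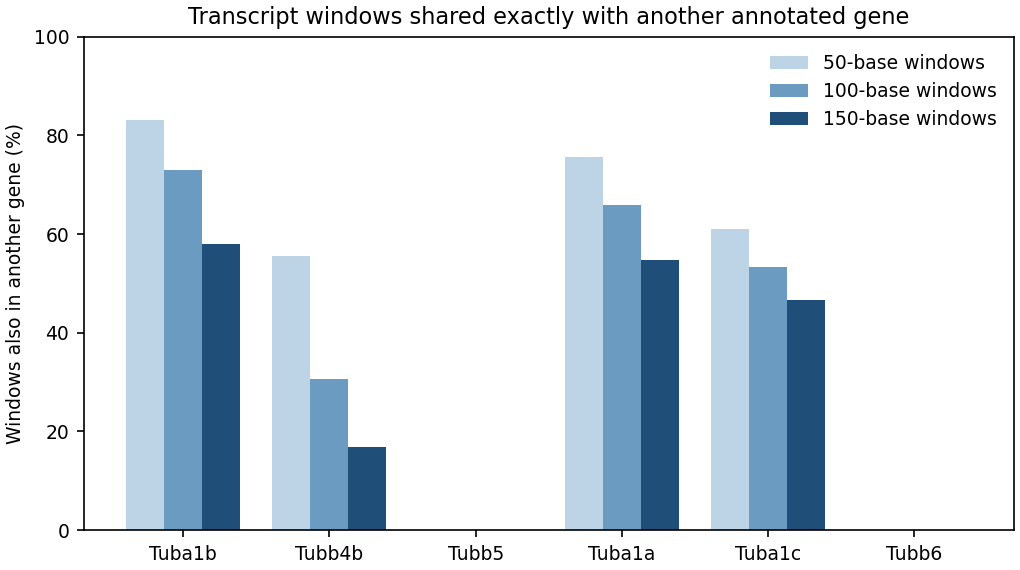
Share of windows along each tubulin transcript (y axis, %) that occur exactly in an annotated transcript of another gene, for windows of 50, 100 and 150 bases (light to dark bars). The 3 alpha-tubulin genes share at least 46.7% at every length, Tubb4b 55.5%, 30.6% and 16.8%, and Tubb5 and Tubb6 next to none.

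Tuba1b and Tubb4b were both lower in cKO, and their promoters are shown beside that of Tubb5, which differed little. Each is the RefSeq window on GRCm38 from 250 bases before to 50 bases after the annotated start, all on the minus strand, at chr15:98934341-98934640 for Tuba1b, chr2:25224653-25224952 for Tubb4b and chr17:35838252-35838551 for Tubb5. Capitals mark CCAAT or its reverse complement ATTGG, the box bound by the factor NF-Y.
Tuba1b: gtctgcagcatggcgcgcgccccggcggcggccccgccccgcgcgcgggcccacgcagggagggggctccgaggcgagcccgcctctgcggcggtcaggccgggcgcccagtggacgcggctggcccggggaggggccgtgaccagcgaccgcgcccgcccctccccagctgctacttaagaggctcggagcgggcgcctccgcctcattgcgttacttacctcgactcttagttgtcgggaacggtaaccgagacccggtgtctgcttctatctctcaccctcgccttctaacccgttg
Tubb4b: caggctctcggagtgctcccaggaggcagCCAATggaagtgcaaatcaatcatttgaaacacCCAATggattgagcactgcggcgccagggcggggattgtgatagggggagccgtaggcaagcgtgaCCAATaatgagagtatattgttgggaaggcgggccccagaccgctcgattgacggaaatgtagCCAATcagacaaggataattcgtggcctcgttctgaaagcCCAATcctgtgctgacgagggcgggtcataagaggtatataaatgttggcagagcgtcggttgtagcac
Tubb5: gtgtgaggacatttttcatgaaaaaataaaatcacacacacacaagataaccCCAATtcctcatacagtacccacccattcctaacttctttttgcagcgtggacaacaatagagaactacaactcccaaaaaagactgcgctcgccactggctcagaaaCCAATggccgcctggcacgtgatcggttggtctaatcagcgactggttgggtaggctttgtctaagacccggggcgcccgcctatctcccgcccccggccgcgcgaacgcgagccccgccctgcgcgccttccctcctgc
Tubb4b had 5 CCAAT matches, whose first bases lie at -221, -188, -122, -59 and -19 from the start. Tubb5 had 2 matches and Tuba1b had 0. Of 32817 RefSeq promoter windows of this length, 37.4% held at least 1 match on either strand, 11.7% at least 2 and 0.271% at least 5. The GC box GGGCGG, on either strand, matched at 2 positions in each of the 3 promoters. Of all windows 35.6% held at least 1 match to it and 19.5% at least 2. The TATA box TATAAA occurred in the Tubb4b window alone of the 3, 19 bases past the annotated start, and in 13.6% of all windows; the E-box CACGTG occurred in the Tubb5 window alone of the 3 and in 7.15% of all windows. The cyclic AMP element TGACGTCA was in none of the 3 windows and in 1.79% of all. G and C made up 72.7% of the Tuba1b window, 53.7% of that of Tubb4b and 55.0% of that of Tubb5, beside a median of 52.7% over all windows. These matches describe letters in these windows alone. The RefSeq start lies at base 176 of the GENCODE transcript for Tuba1b, against base 1 for Tubb4b and base 6 for Tubb5, so the Tuba1b window begins further downstream and its counts of matches depend on that start.

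The target gene was low in every library labelled cKO. Nus1 averaged 13.9 ± 0.252 TPM in cKO and 59.8 ± 0.902 TPM in Ctrl (SD, n = 3 each). TPM, a share of all transcripts in a library, is scaled by gene length and library and so can be compared between genes. Reads in the deposited rows summed to between 10786150 and 10983767 in cKO libraries and to between 11002519 and 11033144 in Ctrl libraries; these are parts of each library and not its depth. The table holds the authors' called genes, 29.4% of the 15835 they tested, so a gene without a row has an unknown level here. Of 13 microglial markers 8 had a row, 6 lower and 2 higher in cKO, beside 53.6% lower over all tested genes. The median of their log2 fold changes was -0.36, beside -0.12 over all tested genes. Their summed level, which joins both directions, was 707 to 740 TPM in cKO and 793 to 870 TPM in Ctrl. Of those highest in TPM, C1qb and C1qc fell by 0.72 and 0.70 on the log2 scale, while Itgam rose by 0.69 and Ptprc by 0.24 (edgeR). Trem2 and Csf1r were at -0.16 and -0.13, calls that were lost with RLE and upper-quartile scaling. None of 12 neuronal markers, Tubb3 among them, had a row. For astrocytes 1 of 8 had one, Aldh1l1 at 0.0967 TPM in cKO and 0.383 TPM in Ctrl, and for endothelial and mural cells 1 of 9, Pecam1 at 0.677 TPM in cKO and 0.26 TPM in Ctrl. Of 9 oligodendrocyte markers only Cnp had a row (26.7 TPM in cKO and 22.6 TPM in Ctrl), and of 9 for border macrophages, monocytes and neutrophils Mrc1 did (4.55 TPM in cKO and 10.2 TPM in Ctrl) and Ly6c2 (0.61 TPM in cKO and listed at 0 in every Ctrl library). The part of these cells in the tubulin values was not tested.

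Tuba1b, the highest in TPM of the 3 alpha-tubulin genes with a row, had 1568, 1677 and 1561 TPM in the cKO libraries, against 2141, 2149 and 2112 TPM in the Ctrl libraries. The groups did not overlap, and every cKO library lay below the lowest Ctrl library; 51.6% of tested genes in this table were lower in cKO in the same way, and 97.6% kept the groups apart in either direction. The means were 1602 ± 64.9 TPM in cKO and 2134 ± 19.6 TPM in Ctrl (SD, n = 3 each), and Tuba1b ranked 54 of 4656 genes by mean TPM. On counts scaled by the authors' size factors, the edgeR log2 fold change was -0.44 ± 0.02 (SE), and 5.48% of the rows were as low or lower by the authors' deposited table. In bulk RNA, fewer cells that express a tubulin and less tubulin mRNA per cell cannot be told apart.

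Tubb4b had 467, 489 and 476 TPM in the cKO libraries, against 710, 718 and 715 TPM in the Ctrl libraries. Again all cKO libraries lay below all Ctrl libraries, as for 51.6% of tested genes, and 97.6% kept the groups apart in either direction. The difference of Tubb4b was the largest of the 3. The means were 477 ± 10.9 TPM in cKO and 714 ± 3.85 TPM in Ctrl (SD, n = 3 each), a ratio of 0.668. The log2 fold change on scaled counts was -0.61 ± 0.02 (SE), and 2.26% of the deposited rows were as low or lower by the authors' deposited table.

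Tubb5 had 808, 858 and 804 TPM in the cKO libraries, against 851, 840 and 855 TPM in the Ctrl libraries. The groups overlapped on this scale, because cKO replicate 2 lay above every Ctrl library. The means were 823 ± 30.5 TPM in cKO and 849 ± 7.95 TPM in Ctrl (SD, n = 3 each). In the authors' normalized counts, which divide each library by a size factor, the values were 20900, 21915 and 20838 in cKO and 22265, 22235 and 22359 in Ctrl, and there the groups did not overlap, as for 53.2% of tested genes on the lower side and 99.4% in either direction. The log2 fold change was -0.07 ± 0.02 (SE) with the authors' size factors. It was -0.029 with TMM scaling over the deposited rows, and it turned to 0.0074 with RLE and 0.017 with upper-quartile scaling, so the direction for Tubb5 depends on the scaling. Tuba1b and Tubb4b were lower in cKO under each of these scalings, at -0.35 or below and at -0.52 or below. The median log2 fold change of all 4641 tested genes was -0.12 with the authors' size factors, and -0.03 with upper-quartile scaling, so Tubb5 lay above that median and Tuba1b and Tubb4b below it in both.

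**Figure D2:**
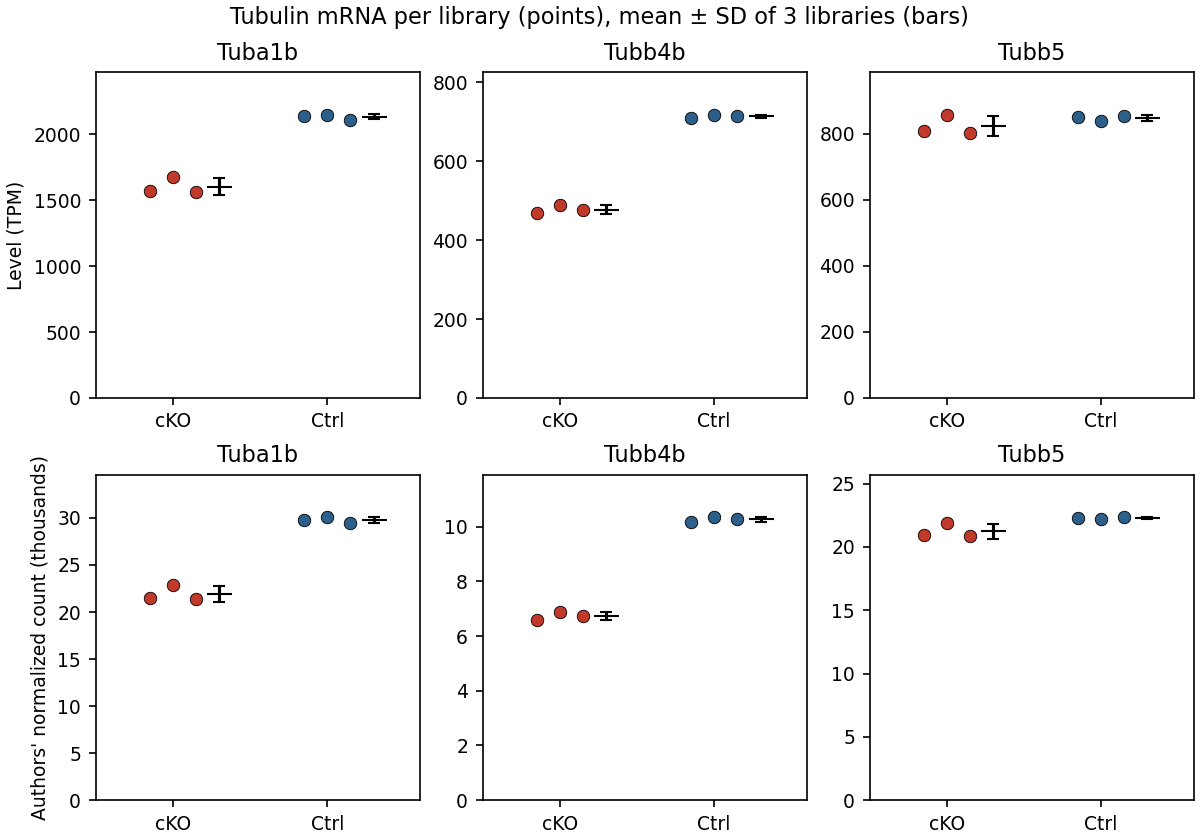
Levels of Tuba1b, Tubb4b and Tubb5 in TPM (top) and in the authors' normalized counts (bottom, axis in units of 1000) for the cKO libraries (red) and Ctrl libraries (blue), with mean ± SD of 3 libraries at the right of each group. Tubb4b averages 477 TPM in cKO and 714 TPM in Ctrl, while the groups for Tubb5 overlap in TPM and not in normalized counts.

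**Figure D3:**
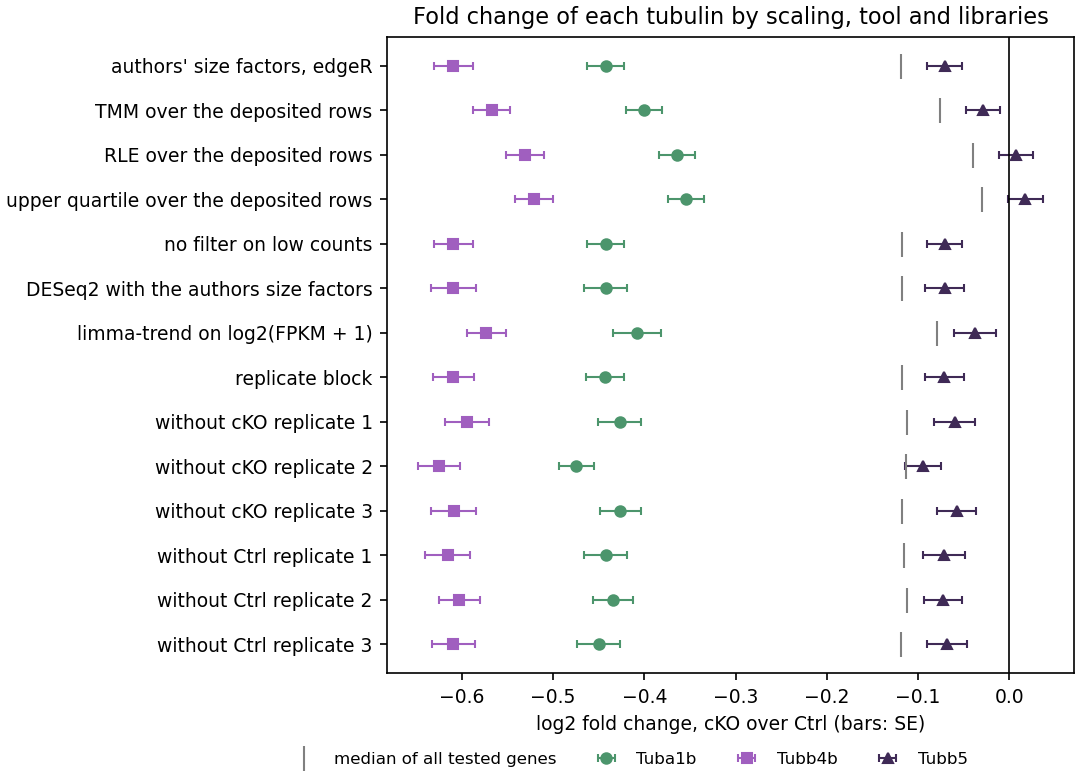
log2 fold change, cKO over Ctrl, of each tubulin (x axis; bars are SE) under each scaling, tool, replicate block and left-out library (y axis), with grey ticks for the median of all tested genes. Tubb4b stays lowest and Tubb5 highest in every setting, and Tubb5 is above 0 with RLE (0.0074) and upper-quartile scaling (0.017).

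The replicates of these abundant genes were close. Between Ctrl libraries the normalized counts varied by 1.06% for Tuba1b, 0.892% for Tubb4b and 0.290% for Tubb5 (coefficient of variation), beside counting errors of 0.582%, 0.992% and 0.673% of the mean. Between cKO libraries the variation was 3.81%, 2.10% and 2.85%, beside counting errors of 0.671%, 1.21% and 0.682%. In all 3 genes cKO replicate 2 was the highest cKO library in TPM. Without it the log2 fold changes were -0.47 for Tuba1b, -0.62 for Tubb4b and -0.09 for Tubb5.

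Ratios taken within a library do not depend on how libraries were scaled to each other. The ratio of Tubb4b to Tubb5 in TPM was 0.579, 0.570 and 0.592 in the cKO libraries, against 0.835, 0.855 and 0.835 in the Ctrl libraries. The highest cKO ratio lay well below the lowest Ctrl ratio, and on the log2 scale the group means differed by -0.54 (cKO minus Ctrl), with SDs of 0.03 in cKO and 0.02 in Ctrl. Tuba1b to Tubb5 was 1.94, 1.95 and 1.94 in cKO and 2.52, 2.56 and 2.47 in Ctrl, a log2 difference of -0.37. Tubb4b to Tuba1b was 0.298, 0.292 and 0.305 in cKO and 0.332, 0.334 and 0.338 in Ctrl, a smaller log2 difference of -0.17. The 3 ratios each kept the groups apart, as the choice of genes that differ in size of change implies.

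By level per length, the order was Tuba1b, then Tubb5, then Tubb4b in each of the 6 libraries, with no overlap between neighbours within a group. By reads the order was the same in each library but the gaps differed, as the Tubb5 transcript is longer: Tubb4b had between 0.313 and 0.323 times the reads of Tubb5 in cKO and between 0.457 and 0.466 times in Ctrl. The effective length implied by reads per TPM was 1.82 to 1.84 times that of Tubb4b for Tubb5 and 0.971 to 0.972 times for Tuba1b, over all 6 libraries. The GENCODE transcripts have 1743 bases for Tuba1b, 1598 for Tubb4b and 2649 for Tubb5, of which 1061 follow the coding sequence in Tubb5, against 157 in Tuba1b and 148 in Tubb4b.

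As a share of the beta-tubulin TPM in the table (Tubb5, Tubb4b and Tubb6), Tubb5 made up 52.9%, 53.3% and 52.4% in the cKO libraries, against 44.96%, 44.2% and 45.04% in the Ctrl libraries. Tubb4b made up 30.6%, 30.4% and 31.0% in cKO, against 37.5%, 37.8% and 37.6% in Ctrl. The beta pool was thus more strongly Tubb5 in each cKO library, by 8.09 percentage points on average, with a summed level of 1558 ± 46.1 TPM in cKO and 1897 ± 3.37 TPM in Ctrl (SD, n = 3 each). Among the alpha genes Tuba1b made up 76.5 ± 0.486% in cKO and 78.9 ± 0.108% in Ctrl, with Tuba1c at 18.8% in cKO and 17.98% in Ctrl and Tuba1a at 4.68% in cKO and 3.08% in Ctrl. The summed level of the 3 alpha genes ranged from 2048 to 2174 TPM in cKO and from 2676 to 2726 TPM in Ctrl. Their summed count is free of how shared reads were split among them, though it can include reads of pseudogenes, and in the authors' normalized counts it was 29957, 31528 and 29957 in the cKO libraries, against 39983, 40551 and 39606 in the Ctrl libraries. The groups did not overlap in that sum either, with a ratio of 0.761, cKO over Ctrl. In normalized counts 53.2% of single tested genes were lower in cKO without overlap. The ratio of summed alpha to summed beta TPM was 1.343 ± 0.00789 in cKO and 1.426 ± 0.0143 in Ctrl. Isotypes without a row are missing from these sums.

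**Figure D4:**
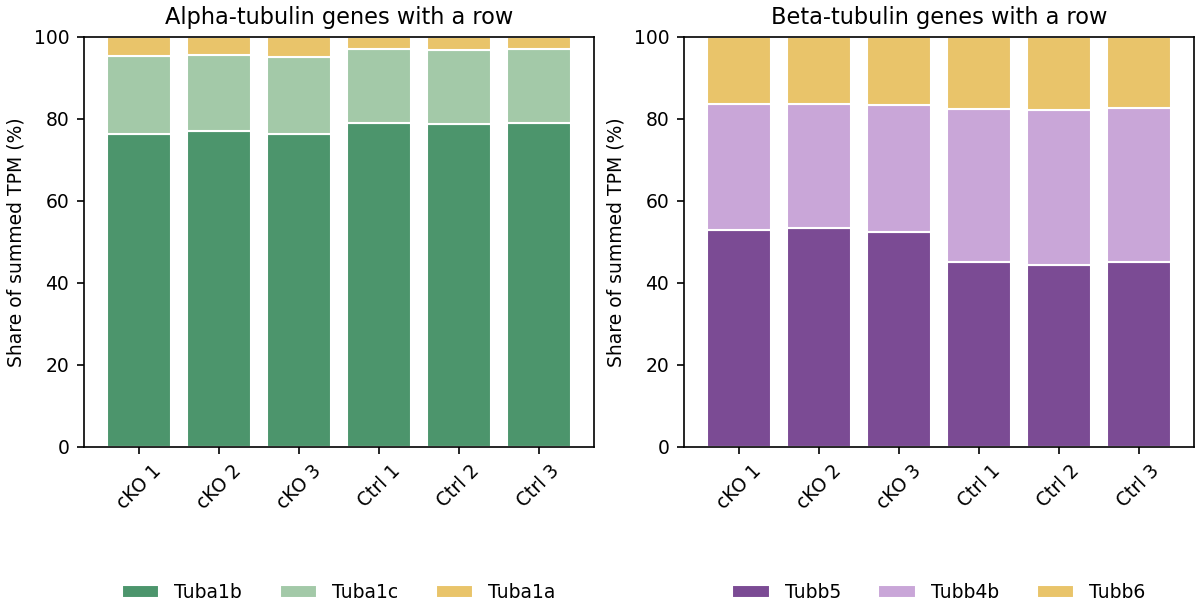
Share of summed TPM (y axis, %) of each alpha-tubulin gene (left) and beta-tubulin gene (right) with a row, by library, cKO before Ctrl. In each cKO library Tubb5 takes at least 52.4% of the beta sum, against at most 45.04% in Ctrl, and Tuba1b takes 76.2% to 77.1% of the alpha sum in cKO and 78.8% to 79.1% in Ctrl.

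Of 17 other tubulin genes 4 had a row, and these were tested in the fit of all genes with edgeR's quasi-likelihood test and Benjamini-Hochberg adjustment over 15835 genes. As every row is a gene the authors had called, 100% of the 4641 tested genes passed here, 53.6% lower and 46.4% higher in cKO, and a count of calls says little about a list. Tuba1c fell to 391, 400 and 387 TPM in cKO libraries, against 486, 491 and 481 TPM in Ctrl libraries (log2 fold change -0.34 ± 0.02 (SE), adjusted p = 2.7e-17). Tuba1a rose to 95.2, 98.4 and 100.3 TPM in cKO, against 81.3, 85.9 and 82.4 TPM in Ctrl (log2 fold change 0.21 ± 0.04, edgeR adjusted p = 1.2e-05). Tuba1a was the only one of these 4 called higher. The 3 alpha genes lie together on chromosome 15 in mm39, Tuba1b from 98829310 to 98832271 and Tuba1a from 98847728 to 98851382 on the minus strand, 15456 bases apart, and Tuba1c from 98927772 to 98935986 on the plus strand. Their changes went in both directions within that cluster, with the limit that their reads are shared.

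Tubb6, the class V beta isotype, fell to 252, 264 and 256 TPM in cKO, against 332, 340 and 329 TPM in Ctrl (log2 fold change -0.40 ± 0.02 (SE), edgeR adjusted p = 6.8e-18). It shared 0% of its 50-base windows with another gene. Tubg1, a gamma-tubulin of the nucleating ring, fell to 63.3, 67.7 and 66.8 TPM in cKO, against 76.1, 73.5 and 79.3 TPM in Ctrl (log2 fold change -0.23 ± 0.04, edgeR adjusted p = 8.4e-06). Tubb5 lies on chromosome 17 from 36144812 to 36149193 and Tubb4b on chromosome 2 from 25112170 to 25114714, both on the minus strand in mm39.

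Among genes for folding of tubulin and decay of its mRNA, 14 of 24 had a row, of which 12 fell and 2 rose. Over all tested genes 53.6% were lower. The median log2 fold change of the 14 was -0.21, beside -0.12 over all tested genes. Ttc5, the mouse gene of TTC5, had no row. Of the chaperonin that folds tubulin and actin, Cct6a fell to 461 ± 1.595 TPM in cKO, against 569 ± 8.43 TPM in Ctrl (SD, n = 3 each; log2 fold change -0.33 ± 0.02, edgeR adjusted p = 1.3e-17), while Cct4 was at -0.07 on the log2 scale (edgeR adjusted p = 0.0083), a call lost with TMM scaling and without Ctrl replicate 3 (adjusted p = 0.078) and a direction that turned with RLE (0.010) and upper-quartile scaling (0.020). Pfdn4, a subunit of the prefoldin that hands tubulin to the chaperonin, fell by 0.34. With TMM 10 genes of this list were called lower, and with RLE or upper-quartile scaling 8. The genes that rose were Tbcel, which encodes a relative of tubulin-specific chaperone E, by 0.24 to 22.5 TPM in cKO, against 18.6 TPM in Ctrl, and Scaper, a partner in tubulin mRNA decay, by 0.56. Scaper was named because it completes the count, after its value was seen.

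Of 23 enzymes that modify tubulin only 3 had a row, and the 3 fell (median -0.23). Over all tested genes 53.6% were lower, with a median of -0.12, so so small a count says little. Ttll12, a member of the tubulin ligase-like family, was at 29.1 TPM in cKO and 36.6 TPM in Ctrl (log2 fold change -0.36 ± 0.04, edgeR adjusted p = 5.2e-11). Ttl, which puts tyrosine back on alpha-tubulin, fell by 0.23 and the polyglutamylase Ttll4 by 0.19; the call of Ttl was lost with RLE and upper-quartile scaling, which left 2 of the 3. Of 20 nucleation genes 4 had a row and fell (median -0.21), again too few to set against that share. They were the augmin subunits Haus4 (by 0.35), Haus8 (by 0.21) and Haus6 (by 0.14), and the spindle factor Tpx2 (by 0.20). With RLE 3 and with upper-quartile scaling 2 of the 4 were called.

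Of 44 genes for microtubule dynamics and binding 17 had a row, of which 15 fell and 2 rose (median -0.25), with 12 lower under upper-quartile scaling. For comparison with each list here, 53.6% of all tested genes were lower and 46.4% higher, with a median of -0.12. Ckap2, a spindle protein, fell by 0.37 and the severing enzyme Spast by 0.35, while Katna1, the catalytic subunit of the severing enzyme katanin, rose by 0.20 and the stabilising protein Map6 by 0.51, to 9.08 TPM in cKO, against 6.60 TPM in Ctrl. Of 11 mitotic kinesins 10 had a row and 10 fell (median -0.21), with 8 called lower under upper-quartile scaling. They ranged from Kif20a at -0.32 and Kif14 at -0.26, which act in cytokinesis, to the chromosome-bound Kif4 at -0.18 and the kinetochore motor Cenpe at -0.17. Of 19 transport kinesin genes 7 had a row, of which 5 rose and 2 fell (median 0.28). Kif21b rose by 0.37 ± 0.03, to 17.2 TPM in cKO, against 13.1 TPM in Ctrl (edgeR adjusted p = 7.6e-12), and the light chain Klc2 by 0.29, while Kifap3 fell by 0.23 and the endosomal motor Kif16b by 0.16. With RLE or upper-quartile scaling 0 transport kinesins were called lower. Of 26 dynein and dynactin genes 8 had a row, 3 higher and 5 lower (median -0.15), with 4 lower under TMM, RLE or upper-quartile scaling. The dynactin gene Actr1b fell by 0.38 and the dynein regulator Nde1 by 0.31, while Dync1li1, a dynein light intermediate chain, rose by 0.14 and Ndel1, a paralog of Nde1, by 0.16.

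Genes of the actin cytoskeleton and of proliferation were also listed. Of 25 actin genes 18 had a row, of which 14 fell and 4 rose, beside 53.6% lower over all tested genes. Their median was -0.15, beside -0.12 over all tested genes. Under TMM 11 were called lower, and 9 under RLE or upper-quartile scaling. The actins Actg1 and Actb, close copies of each other whose reads may be shared, fell by 0.46 and 0.42, close in size to Tuba1b, to 1221 ± 36.9 and 2211 ± 87.5 TPM in cKO, against 1643 ± 22.1 and 2900 ± 69.0 TPM in Ctrl (SD, n = 3 each). The intermediate filament gene Vim rose by 0.35 and the myosin heavy chain Myh9 by 0.24. Of 24 proliferation genes all 24 had a row and fell (median -0.27). Of all genes the authors tested 29.4% had a row, and 53.6% of the tested rows were lower. The list was chosen with earlier results of these data known, so its count is a description and no test. Under RLE 23 of the 24 were called lower, and 22 under upper-quartile scaling. Their summed level was 3295 to 3348 TPM in cKO and 3948 to 3965 TPM in Ctrl. The anaphase activator Cdc20 fell by 0.53 and the ribonucleotide reductase subunit Rrm2 by 0.48, while the helicase subunit Mcm7 fell by 0.15 and the topoisomerase Top2a by 0.10. The calls of Mcm7 and Top2a were lost with upper-quartile scaling, and that of Top2a also with RLE and with limma on log2(FPKM + 1). With the authors' size factors Tubb4b lay below, and Tubb5 above, each of these 24 genes. Tubb5, at -0.07 ± 0.02 (SE), was close to Top2a, at -0.10 ± 0.02. The members were chosen for unequal changes, so this order carries no test. Whether the share of dividing cells has a part in the tubulin values was not tested.

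**Figure D5:**
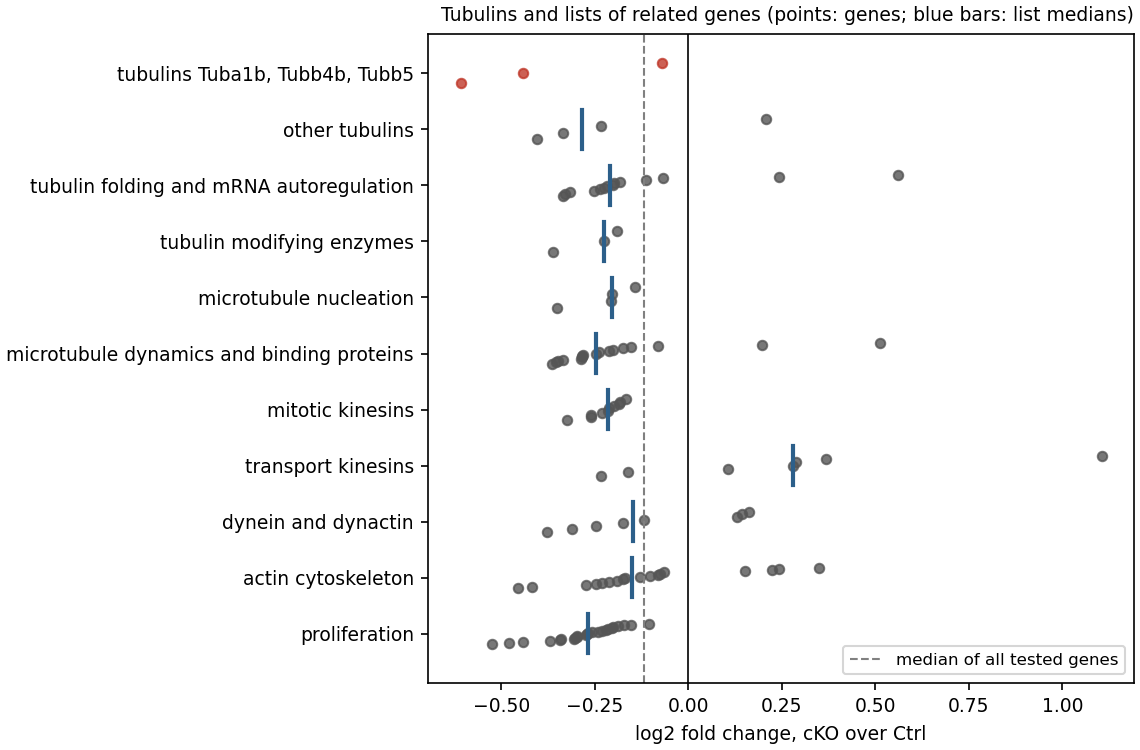
log2 fold change, cKO over Ctrl (x axis), of Tuba1b, Tubb4b and Tubb5 (red) and of the tested genes in each list (grey points; blue bars are list medians), with the median of all tested genes as a dashed line at -0.12. The medians lie between -0.28 and -0.15, except transport kinesins at 0.28.

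The genes whose profile over the 6 libraries lay closest to each tubulin were found by Euclidean distance of log2 normalized counts set to the Ctrl mean, among 4195 genes averaging 5 TPM or more. Closest to Tuba1b were Htra2, a mitochondrial protease (distance 0.02, log2 fold change -0.44), Utp20, a factor of ribosome assembly (0.04, log2 fold change -0.43), and Pcyt2, of phosphatidylethanolamine synthesis (0.04, log2 fold change -0.46). Closest to Tubb4b were Cacybp, a partner of a ubiquitin ligase (distance 0.05, log2 fold change -0.60), the zinc transporter Slc39a10 (0.05, log2 fold change -0.62) and Ifrd2 (0.06, log2 fold change -0.59). Closest to Tubb5 were Coro1a, an actin-binding protein of leukocytes (distance 0.03, log2 fold change -0.08), the replication factor Pclaf (0.03, log2 fold change -0.09) and Polr2a, the largest subunit of RNA polymerase II (0.03, log2 fold change -0.07). The directions of these 3 turned with upper-quartile scaling, as that of Tubb5 did. The distance picks genes of nearly the same fold change, so that turn follows from how they were chosen. No tubulin was among these nearest genes, and the 3 members had been chosen to differ in size of change.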

How the data were processed

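Read counts, TPM and FPKM came from 1 deposited table of 6 libraries, grouped by the genotype label. The tools listed in the submitters' processing notes are DESeq2 1.34.0 and Bowtie2 2.4.5, with mm39 as the build; the sources used here name no read counter. The file headers call the deposited counts read counts. As 11.1% of them are not whole (tolerance 1e-06), they were taken to be expected counts that the authors estimated. FPKM and TPM were scaled by gene length and library by the authors. The deposited normalized counts, a signal, equal the count rounded up over 1 size factor per library (0.987 to 1.02) in 100% of entries. The authors' log2 values are cKO over Ctrl, and their deposited q-values match a Benjamini-Hochberg adjustment over 15835 genes in 100% of rows (relative tolerance 1e-06), all under 0.05. Columns of values of other samples numbered 0, and 8 columns of averages were not used.

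Counts rounded to whole numbers were fitted with edgeR 4.0.16 (quasi-likelihood, R 4.3.3), scaled by the authors' size factors because the rows were selected on the comparison itself. filterByExpr left 4641 genes and removed 15. p-values were adjusted over 15835 genes, with every unlisted gene taken as having a larger p-value, at a threshold of 0.05. The design had assumed whole counts. Tools were tested on simulated data. Alternatives were TMM, RLE and upper-quartile scaling, no filter, DESeq2 1.42.0, limma 3.58.1 on log2(FPKM + 1), a replicate block and leaving out each library. Replicates differed by more than sampling noise in every pair (chi-square per degree of freedom 1.31 to 2.18).

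The genes and lists were chosen with earlier results of these data known. Named were the tubulins with a row, of each list the 2 highest and 2 lowest called genes with a mean of at least 5 TPM, up to 6 markers of a cell type, and the 3 nearest profiles of each member. Sequences were read with Python 3.11.15 from RefSeq promoters on GRCm38 and GENCODE M21 transcripts, and coding sequences were aligned with Biopython 1.88; file coordinates are mm39. Protein sequences were not used here.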

Additional observations from a re-analysis of the deposited data

How the results depend on the processing

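The scaling of the libraries was the choice that moved the tubulin values. For Tuba1b the log2 fold change was -0.44 with the authors' size factors, -0.40 with TMM, -0.36 with RLE and -0.35 with upper-quartile scaling. For Tubb4b it was -0.61, against -0.57 both with TMM and with limma on log2(FPKM + 1), -0.53 under RLE and -0.52 under upper-quartile scaling. For Tubb5 it was -0.07, against -0.029 with TMM and -0.038 with limma, and it turned to 0.0074 with RLE and 0.017 with upper-quartile scaling. The shift is that of the median of all genes, which rose from -0.12 by 0.04, 0.08 and 0.09 with TMM, RLE and upper-quartile scaling, and these factors rest on rows selected on the comparison. Calls lower in cKO dropped with upper-quartile scaling in each list except the other tubulins. With TMM they stayed at 3 for modifying enzymes and at 4 for nucleation genes. With upper-quartile scaling they were 8 of folding genes (12 with the authors' factors), 2 of modifying enzymes (3), 2 of nucleation genes (4), 12 of dynamics genes (15), 8 of mitotic kinesins (10), 0 of transport kinesins (2), 4 of dynein and dynactin genes (5), 9 of actin genes (14) and 22 of proliferation genes (24). With RLE transport kinesins were also at 0 and actin genes at 9. Cct4 turned to 0.010 with RLE and 0.020 with upper-quartile scaling. In alternatives added after seeing the data, of the genes nearest to Tubb5, Coro1a turned to 0.0012 and 0.011 and Polr2a to 0.0079 and 0.018 with RLE and upper-quartile scaling, and Pclaf to 0.0031 with upper-quartile scaling. Over all genes 2155 were higher with the authors' factors and with each of these scalings, and 2486 were lower with the authors' factors, 2332 with TMM, 1870 with RLE and 1730 with upper-quartile scaling. Leaving out each library gave -0.47 to -0.43 for Tuba1b, -0.62 to -0.59 for Tubb4b and -0.09 to -0.06 for Tubb5. Same-numbered libraries did not deviate together (r = 0.07, -0.00 and -0.06), and 1 of the 3 cKO libraries correlated best with its own number. These values show no pairing by number, but with so few libraries they cannot exclude one. With a replicate block the log2 fold changes were -0.44 for Tuba1b, -0.61 for Tubb4b and -0.07 for Tubb5. The ratios within a library and the shares of the alpha and beta sums moved by less than 1 SD with FPKM and with each library left out, as did the ratios with counts. Depth is known for the deposited rows alone, and genes without a row were not analysed here.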
